A study of Drosophila melanogaster with 18 samples.

Results

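The peaks of GAF and of H4K8ac found in mitotic Drosophila embryos were set side by side, to ask how much of the chromatin occupied by GAF during mitosis was also acetylated, and where in the acetylated regions GAF lay. All peaks of both mitotic lists on the nuclear chromosomes 2L, 2R, 3L, 3R, 4, X and Y entered the comparison. These were 1829 of 1839 GAF peaks and 5404 of 5405 H4K8ac peaks, together 7233 of the 18020 peaks in the 4 lists of mitosis and interphase. A peak of one list was counted with the other mark when at least 1 bp of it was covered. A gene was counted by its promoter, the 100 bp to each side of any annotated transcription start site (TSS), and separately by its gene body.

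The study profiled 18 samples by ChIP-seq, of which 2 GAF and 2 H4K8ac immunoprecipitations came from mitotic embryos, each with an input sample. All were whole wild-type (yw) embryos, about 1000 to a sample, aged 1 to 2.5 h by the sample labels (the study's methods give a later start of collection), fixed, stained for histone H3 phosphorylated on serine 10, which marks mitotic chromosomes, and sorted into mitotic or interphase embryos. The authors averaged the replicates before they called peaks, so that each list describes 1 pooled profile of a mixture of embryos from several nuclear cycles. The lists hold positions only, with no height, read count or value per replicate. The depth behind a peak is therefore unknown, the replicates could not be compared, and all intervals below are 95% intervals that cover counting error only. Peaks of one list are not replicates of each other.

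GAF, the GAGA factor, is the product of the Trithorax-like gene (Trl). It is a zinc finger protein with a BTB domain that binds GA repeats, opens chromatin by working with remodelling complexes, and remains on chromosomes through mitosis. H4K8ac is acetylation of histone H4 on lysine 8, a mark of active promoters and enhancers that is laid down as the zygotic genome is switched on. The early fly embryo divides in fast synchronous cycles in which transcription stops at every mitosis, and marks or factors that stay on the chromosomes have been studied as a possible carrier of memory between cycles.

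GAF occupied GA-rich sequence both within and outside acetylated chromatin. The windows below show this first at the GAF peaks that overlap the promoters of sna, esg and scyl, which carry both marks. The next is from the longest of 3 GAF peaks sharing the highest number of GAGAG motifs, 15, among those without H4K8ac. That ranking left out peaks with 50% repeat or more. The last is from the longer of the GAF peaks crossing an H4K8ac edge with 15 motifs, the most among such peaks. Of the windows, those of sna and esg lie upstream of the promoter as counted here, and the last lies inside the H4K8ac peak. Each is the stretch of 150 bp with the most motifs in its peak, read 5′ to 3′ on the plus strand of dm6 (RefSeq), with GAGAG and its reverse complement CTCTC in capitals. Motifs were counted without overlap on each strand.
sna promoter, chr2L:15478419-15478568, 6 motifs: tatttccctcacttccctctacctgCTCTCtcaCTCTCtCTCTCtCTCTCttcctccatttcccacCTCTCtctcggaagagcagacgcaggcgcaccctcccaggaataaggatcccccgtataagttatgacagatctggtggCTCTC
esg promoter, chr2L:15333534-15333683, 3 motifs: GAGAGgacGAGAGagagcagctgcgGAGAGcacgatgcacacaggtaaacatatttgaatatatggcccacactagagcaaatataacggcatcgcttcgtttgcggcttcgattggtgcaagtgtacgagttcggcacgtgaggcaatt
scyl promoter, chr3L:11252107-11252256, 3 motifs: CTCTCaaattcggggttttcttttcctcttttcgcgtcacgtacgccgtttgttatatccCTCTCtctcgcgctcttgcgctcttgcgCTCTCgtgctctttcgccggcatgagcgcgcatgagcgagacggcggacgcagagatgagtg
disco, GAF without H4K8ac, chrX:16217325-16217474, 4 motifs: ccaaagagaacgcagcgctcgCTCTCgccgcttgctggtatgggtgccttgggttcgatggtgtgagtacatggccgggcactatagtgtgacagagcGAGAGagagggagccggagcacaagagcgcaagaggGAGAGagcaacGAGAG
RhoGAPp190, GAF at an H4K8ac edge, chrX:17652179-17652328, 6 motifs: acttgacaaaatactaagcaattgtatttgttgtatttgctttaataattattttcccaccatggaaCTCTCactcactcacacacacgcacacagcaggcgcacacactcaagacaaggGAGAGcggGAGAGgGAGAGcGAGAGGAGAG
Among all 916984 consecutive windows of 150 bp on the same chromosomes, 16.5% held at least 1 such motif, 0.601% held 3 or more, 0.219% held 4 or more and 0.0258% held 6 or more. The windows were chosen for their motifs, and a match of letters does not by itself show where GAF was bound.

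Most mitotic GAF peaks lay outside acetylated chromatin, and most acetylated peaks had no GAF. Of the 1829 mitotic GAF peaks, 635 overlapped an H4K8ac peak (34.7%, Wilson interval 32.6% to 36.9%) and 1194 did not. In the other direction, 442 of 5404 H4K8ac peaks overlapped a GAF peak (8.18%, 7.48% to 8.94%) and 4962 did not. H4K8ac peaks covered 13.0 Mb, which is 9.44% of the 137.5 Mb of these chromosomes, and GAF peaks covered 0.624 Mb. Centres of GAF peaks lay at 45.3 per Mb within H4K8ac peaks (41.7 to 49.1) and at 9.96 per Mb outside them (9.42 to 10.5), a ratio of 4.54 (4.11 to 5.02). GAF was thus denser in acetylated chromatin than outside it.

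Most acetylated peaks with GAF held a single GAF peak. Of the 442, 322 held 1, 74 held 2, 34 held 3 and 12 held 4 or more. The 120 with 2 or more together held 313 of the 635 overlapping GAF peaks. No GAF peak reached 2 H4K8ac peaks. Neighbouring H4K8ac peaks were at least 2000 bp apart in the list and the median GAF peak was 300 bp long, which left little room for this.

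Most of the overlapping GAF peaks lay wholly within the acetylated peak. Of the 635 overlapping GAF peaks, 549 lay wholly inside the H4K8ac peak (86.5%, 83.6% to 88.9%), 78 crossed one edge (12.3%, 9.95% to 15.1%) and 8 spanned the whole H4K8ac peak (1.26%, 0.640% to 2.47%). The lengths of the peaks alone, with the overlapping GAF peaks placed evenly over all H4K8ac peaks, would put 75.5% wholly inside. With the H4K8ac peaks counted once for each GAF peak in them, at a median length of 5750 bp, even placement would put 92.7% inside. The share observed was between these reference values, for which no test was made. A reference with each GAF peak kept in its own H4K8ac peak was not computed. For the 549 peaks inside, the centre was a median of 1500 bp from the nearer edge (quartiles 700 and 3625 bp).

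The density of GAF along the acetylated peaks had its low point in the outer 500 bp and was higher in every deeper bin. Per Mb of sequence available, 27.7 GAF centres lay in the outer 500 bp (22.7 to 33.5), 59.9 from 500 to 1000 bp inside the edge (50.3 to 70.9), 43.4 from 1000 to 2000 bp (35.5 to 52.4), 56.6 from 2000 to 5000 bp (48.0 to 66.3) and 49.8 deeper than that (39.8 to 61.6). The interval of the outer 500 bp did not overlap those of the deeper bins. In H4K8ac peaks of 2000 bp or longer alone, the outer 500 bp held 25.8 centres per Mb (18.9 to 34.4), a calculation added after the data were seen.

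Outside the acetylated peaks, GAF density fell with distance. It was 36.5 centres per Mb in the first 500 bp beyond an edge (31.6 to 42.0), 19.99 from 500 to 1000 bp (16.4 to 24.1), 13.6 from 1000 to 2000 bp (11.3 to 16.2), 10.9 from 2000 to 5000 bp (9.40 to 12.5), 9.36 from 5000 to 10000 bp (8.03 to 10.9) and 6.49 farther out (5.90 to 7.13). Of the 1194 GAF peaks without H4K8ac, 206 came within 500 bp of an H4K8ac peak (17.3%) and 405 within 2000 bp (33.9%), while 259 were more than 20000 bp away (21.7%). Their median distance was 5550 bp. A label of GAF without H4K8ac therefore covered peaks beside acetylated chromatin as well as peaks far from any. No gap of less than 2000 bp separated neighbouring H4K8ac peaks in the list, so a short dip of acetylation at a GAF site within a longer peak counts here as inside it.

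**Figure D1:**
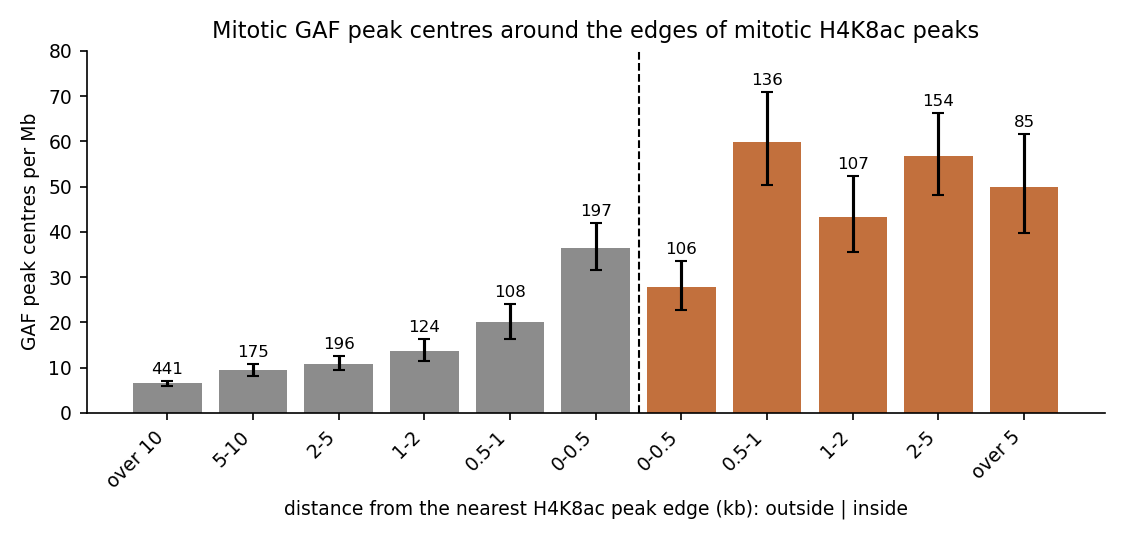
Centres of mitotic GAF peaks per Mb of sequence (vertical axis) by distance in kb from the nearest edge of a mitotic H4K8ac peak (horizontal axis), outside in grey and inside in orange. Bars are rates with exact Poisson 95% intervals and the numbers above them count GAF peaks. The rate rose from 6.49 per Mb far outside to 36.5 beside the edge, was 27.7 just inside it and 43.4 to 59.9 deeper inside.

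The 78 GAF peaks that crossed an edge were balanced on it, with the centre inside the H4K8ac peak for 34 (43.6%, 33.1% to 54.6%). They were longer than the peaks wholly inside, with medians of 450 and 300 bp, and longer peaks reach an edge more easily. Their mean GAGAG number was 5.01 ± 3.36 (SD, n = 78) against 4.26 ± 2.44 (SD, n = 549) for those inside. In the central 300 bp of the peak the means were 3.5 and 3.65, and per kb of peak 10.7 and 13.8. The order of edge and inside peaks thus depended on the measure, and no test was made. Promoters were overlapped by 43.6% of the edge peaks and 47.2% of those inside, a difference of 3.59 points whose interval ran from -8.21 to 14.8.

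GAF peaks with and without H4K8ac differed in length, in the part of the gene they occupied and in repeat content. GAF peaks with H4K8ac had a median length of 350 bp (quartiles 200 and 475) and those without had 250 bp (150 and 400), with means 98.9 bp apart (67.4 to 130). The share with H4K8ac rose with GAF length from 23.2% of the 422 peaks of 100 to 150 bp (19.4% to 27.5%) to 53.4% of the 148 peaks of 650 bp or longer (45.4% to 61.2%). Called length depends on signal strength, and the part of signal strength in this trend was not tested.

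Acetylation was more frequent at GAF peaks in promoters. A promoter was overlapped by 296 of 635 GAF peaks with H4K8ac (46.6%) and by 401 of 1194 without (33.6%), a difference of 13.0 points (8.31 to 17.7). Compared within bins of GAF length, the difference was 9.35 points (4.65 to 14.0). Read the other way, H4K8ac covered 42.5% of the GAF peaks that overlapped a promoter (38.8% to 46.2%) and 29.9% of the others (27.4% to 32.7%). By the position of the centre, H4K8ac was present at 53.7% of the GAF peaks in exons (n = 203), 46.8% in promoters (n = 310), 33.0% in introns (n = 802) and 22.6% between genes (n = 514). Intergenic centres made up 18.3% of GAF peaks with H4K8ac and 33.3% of those without, a difference of -15.1 points (-19.0 to -10.9).

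Over the whole peak, the number of GAGAG motifs did not differ detectably between the classes. The mean was 4.35 ± 2.64 (SD, n = 635) with H4K8ac and 4.26 ± 3.07 (SD, n = 1194) without, a difference of 0.0933 (-0.176 to 0.363). In a window of 300 bp around the centre, of the same length for every peak, the mean was lower with H4K8ac, at 3.61 against 3.97. The difference was -0.361 (-0.576 to -0.146). The median in this window was 4 in both classes, and the maximum was 16 with H4K8ac and 43 without. The part of repeat-rich peaks in the difference was not tested. At least 1 motif was in this window for 93.1% of GAF peaks with H4K8ac and 88.7% of those without, against 30.2% of all consecutive windows of 300 bp. Of the 160 GAF peaks with no motif in the whole peak, 16.2% carried H4K8ac (11.3% to 22.7%). Of peaks with 1 motif this share was 44.6% (33.8% to 55.9%), and of those with 10 or more it was 33.8% (24.2% to 44.9%). The drop was thus confined, among the 6 motif classes compared, to GAF peaks with none.

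**Figure D2:**
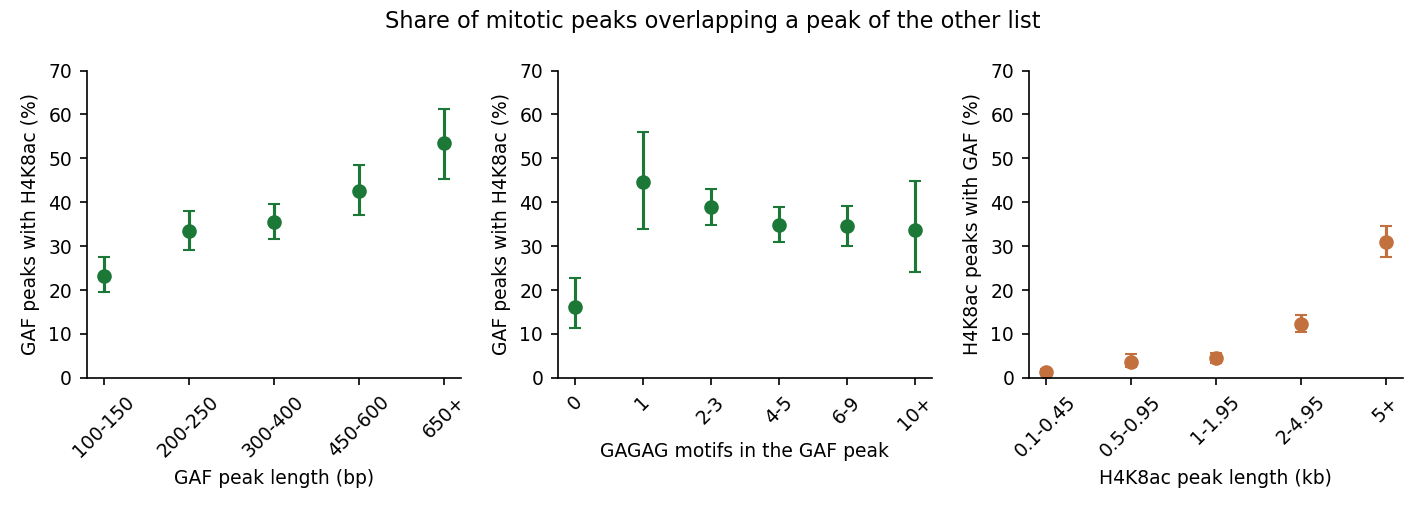
Percent of mitotic GAF peaks overlapping an H4K8ac peak by GAF peak length (left) and by number of GAGAG motifs (middle), and percent of mitotic H4K8ac peaks overlapping a GAF peak by H4K8ac length in kb (right). Points are shares with Wilson 95% intervals. Both lengths go with a larger share, up to 53.4% and 30.9%, while among GAF peaks the low point was the class with no motif, at 16.2%.

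GAF peaks in repeats were less often acetylated. At least 50% of the sequence was marked as repeat in the reference in 36 of 635 GAF peaks with H4K8ac (5.67%) and 194 of 1194 without (16.2%), a difference of -10.6 points (-13.3 to -7.70). Reads from repeats map to several places, and the effect of this on peak calls was not tested.

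On chromosome X, 130 of 460 GAF peaks overlapped H4K8ac (28.3%, 24.3% to 32.5%), against 36.7% of the 1340 on 2L, 2R, 3L and 3R, a difference of -8.46 points (-13.2 to -3.48). H4K8ac peaks covered 6.54% of X and 9.49% to 11.0% of those 4 arms, and GAF peaks covered 0.727% of X and 0.380% to 0.446% of them. The share was not low on X alone, since 27.9% of the 369 GAF peaks on 3L overlapped H4K8ac (23.6% to 32.7%).

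Acetylated peaks that held GAF were long. Their median length was 4475 bp (quartiles 2012.5 and 9837.5, n = 442), against 1050 bp (300 and 2300, n = 4962) for those without. The share with GAF rose from 1.42% of the 1759 peaks of 100 to 450 bp (0.965% to 2.09%) to 12.2% of the 1131 peaks of 2000 to 4950 bp (10.4% to 14.2%) and 30.9% of the 654 peaks of 5000 bp or longer (27.5% to 34.5%). Per Mb of acetylated sequence the rise was smaller and uneven, with 27.2 GAF centres in the shortest class (13.6 to 48.7), 47.5 in peaks of 500 to 950 bp (30.1 to 71.3), 28.1 in peaks of 1000 to 1950 bp (20.6 to 37.5), 47.2 in those of 2000 to 4950 bp (40.3 to 55.0) and 49.2 in the longest (44.1 to 54.7). A longer peak offers more room for GAF, and the share per peak holds this together with the density.

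Acetylated peaks with GAF were also richer in motifs and in promoters. At least 4 GAGAG motifs were in 85.5% of those with GAF and 20.9% of those without, a difference of 64.6 points (60.9 to 67.8), and within bins of H4K8ac length the difference was 28.6 points (25.3 to 31.9). A promoter was covered in 83.5% and 57.9%, a difference of 25.6 points (21.6 to 29.1), which within bins of length was 7.79 points (3.94 to 11.6). In the fixed 300 bp at the centre of the H4K8ac peak, away from its length, the mean was 0.962 motifs with GAF and 0.357 without, a difference of 0.604 (0.457 to 0.752). These motif counts took in the sequence of the overlapping GAF peak where it lay in the stretch counted. GAF peaks with H4K8ac held a mean of 4.35 motifs, so a higher number is in part built into the split. A count without the GAF peak was not made.

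The interphase lists were read for context only. Of the mitotic GAF peaks with H4K8ac, 96.1% overlapped a GAF peak of interphase, and of those without H4K8ac 90.0% did, a difference of 6.03 points (3.63 to 8.25). H4K8ac of interphase covered 476 of the 635 GAF peaks with mitotic H4K8ac (74.96%) and 85 of the 1194 without it (7.12%). Of the mitotic H4K8ac peaks, 93.7% of those with GAF and 76.9% of those without overlapped an H4K8ac peak of interphase, and those with GAF were longer. In interphase, 1146 of 4970 GAF peaks (23.1%, 21.9% to 24.2%) overlapped H4K8ac and 833 of 5805 H4K8ac peaks (14.3%, 13.5% to 15.3%) overlapped GAF. The values of the stages stand side by side without a test, because the lists share sites and the interphase GAF list pools 3 samples.

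Promoters with GAF divided between those with and those without H4K8ac, and which group was larger depended on how promoters were counted. Of 17796 genes, 390 had both at a promoter (2.19% of genes), 332 had GAF only (1.87%), 6236 had H4K8ac only (35.0%) and 10838 had neither. With only the most upstream TSS of each gene, 217 had both and 270 had GAF only, and with a window of 1000 bp upstream to 100 bp downstream, 631 had both and 412 had GAF only. H4K8ac was present at 54.0% of the 722 promoters with GAF (50.4% to 57.6%) and at 36.5% of the 17074 without (35.8% to 37.2%), a difference of 17.5 points (13.8 to 21.2). Of the 390 with both, 33 belong to histone genes in near-identical tandem repeats, which are not independent. Shares without them were not computed. Over gene bodies, 840 genes held both (4.72%), 256 held GAF only (1.44%) and 6999 held H4K8ac only (39.3%). In 328 of the 390 genes with both at a promoter (84.1%), the promoter GAF peak itself overlapped the H4K8ac peak, and in the others the marks lay apart or at different start sites. Of the 332 genes with GAF only at the promoter, 126 had H4K8ac elsewhere in the gene body (38.0%, 32.9% to 43.3%).

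GAGAG motifs were frequent at promoters with GAF in either class. Taking only the most upstream TSS of each gene, GAGAG was within 100 bp of it in 77.0% of the 217 promoters with both (70.9% to 82.1%) and 74.1% of the 270 with GAF only (68.5% to 78.9%), a difference of 2.88 points whose interval included zero (-4.87 to 10.4). It was in 16.6% of the 6094 promoters with H4K8ac only (15.7% to 17.5%) and 23.1% of the 11215 with neither (22.3% to 23.9%), a difference of -6.49 points (-7.69 to -5.26). Over all promoters the share was 22.3%. At least 3 motifs were in 32.7% of promoters with both, 28.1% with GAF only and 0.361% with H4K8ac only.

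**Figure D3:**
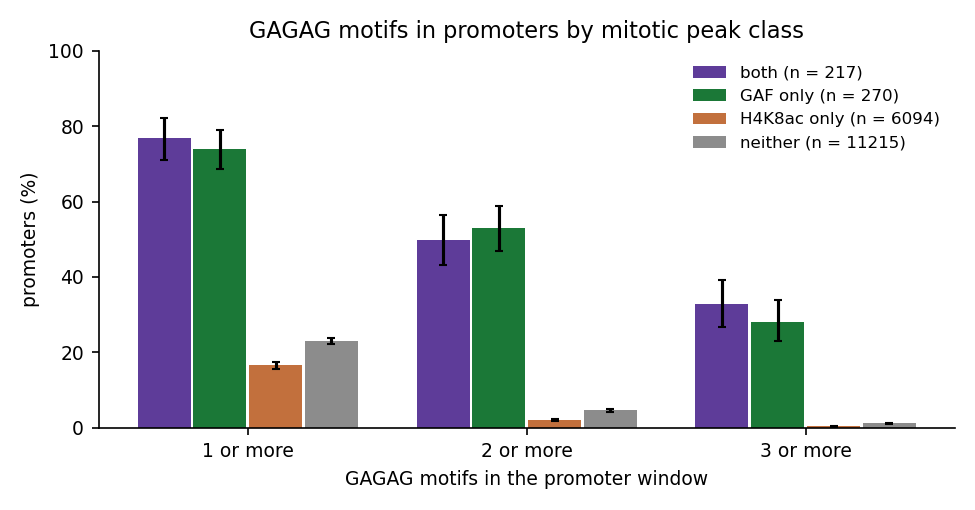
Percent of promoters (vertical axis) holding at least 1, 2 or 3 GAGAG motifs within 100 bp of the most upstream TSS, by mitotic peak class. Bars are shares with Wilson 95% intervals. Promoters with both marks and with GAF only stood near each other at 77.0% and 74.1% for 1 or more motifs, and those with H4K8ac only stood at 16.6%.

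The GAF centre lay more often upstream than downstream of the start site in both classes. Nearness to the TSS was set by the classes, which took GAF peaks overlapping the 100 bp to each side of it. For protein-coding genes counted by their most upstream TSS, the GAF centre was at a median of -85 bp with both marks (quartiles -115 and -32, n = 174) and -116.5 bp with GAF only (-189 and -75, n = 212). It was upstream in 79.9% and 89.6% of them, a difference of -9.74 points (-17.1 to -2.58). At promoters with both, acetylation extended a median of 4487 bp to the upstream side of the TSS and 3092 bp to the downstream side. At the 5360 promoters with H4K8ac only, these medians were 972.5 and 719.5 bp. By the medians the H4K8ac peak at GAF promoters reached farther to both sides, and no test was made. The tandem histone genes, 33 of which had both marks at a promoter, may be among the promoters with both. Of the histone promoters, 89 lie in 1 H4K8ac peak, so their values are not independent. Medians without them were not computed.

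Among genes named in lists chosen for the early embryo, the patterning genes had GAF at many promoters, more often without H4K8ac than with it. Of 61 genes in 7 lists of patterning genes, 7 had both at a promoter, 22 had GAF only, 13 had H4K8ac only and 19 had neither. Both marks were thus at 11.5% of these promoters, beside 2.19% over all genes, GAF at 47.5%, beside 4.06%, and H4K8ac at 32.8%, beside 37.2%. Over their gene bodies, 23 genes held both, 6 GAF only, 27 H4K8ac only and 5 neither. Both marks were in 37.7% of these gene bodies, beside 4.72% over all genes, and H4K8ac in 82.0%, beside 44.0%. These lists were chosen with results of these data known, so the shares are descriptions.

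The gap genes, which encode transcription factors that divide the embryo into broad regions, had GAF at 7 of 9 promoters, beside 4.06% over all genes. Both marks were at hb, Kr and kni, GAF only at tll, oc, btd and ems, and neither at gt and hkb. For Kr and kni the GAF peak lay outside the gene body. Of the 9 pair-rule genes, which set the first periodic pattern, 5 had H4K8ac only, beside 35.0% over all genes. Both marks were at eve, H4K8ac only at ftz, h, run, odd and opa, GAF only at slp1 and slp2, and neither at prd. Of the segment polarity genes, which act within each segment, ptc had both, en, inv and mid had GAF only, ci had H4K8ac only, and wg, hh and gsb had neither.

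No Hox gene, the selectors of segment identity, had H4K8ac at its promoter, beside 37.2% over all genes. Dfd, Ubx, abd-A and Abd-B had GAF only, and lab, pb, Scr and Antp had neither. Within the gene bodies of Dfd, Scr, Antp, Ubx and abd-A both marks were found, lab and pb held H4K8ac only, and Abd-B held GAF only. Hox genes are long and have many start sites, so a gene body gives more room for an overlap.

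Genes of the dorsoventral axis fell into all 4 classes. Of the mesoderm genes, sna had both marks at the promoter, htl, Mef2 and NetA had GAF only, twi and stumps had H4K8ac only, and tin and bap had neither. No promoter of the 8 neurogenic ectoderm and midline genes had H4K8ac, beside 37.2% over all genes. GAF only was at rho and brk, and neither at sog, vnd, ind, sim, vn and SoxN. Of the dorsal ectoderm genes, dpp, which encodes a BMP ligand, had both. GAF only was at ush, pnr, Doc2 and Doc3, H4K8ac only at zen, zen2, tld, scw and Doc1, and neither at tup.

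The gene for GAF and its partners stood among the acetylated genes. All 15 genes of this list, which holds partner, insulator and Polycomb group factors, had H4K8ac at the promoter, and 6 of them had GAF too. Over all genes, 37.2% of promoters had H4K8ac, 4.06% had GAF and 2.19% had both. These were Trl itself, lola, zld (the pioneer factor Zelda), Psc, ph-p and ph-d. The ph-p and ph-d genes are near-identical neighbours, so reads cannot always be placed on one of them. The other 9 had H4K8ac only, including Pc, CTCF and Cp190.

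Most ribosomal protein genes carried H4K8ac without GAF. Over all genes, 2.19% of promoters had both marks, 1.87% GAF only and 35.0% H4K8ac only, and the counts of the lists that follow stand beside these shares. Of 85 ribosomal protein genes, 80 had H4K8ac only at the promoter, 5 had neither and none had GAF. Of the 14 heat shock protein genes, Hsp22 had both, the 6 copies of Hsp70 had GAF only, and the other 7, Hsp83 and Hsp26 among them, had H4K8ac only. The Hsp70 copies are near-identical, so their peaks are not independent. Of the 10 cell cycle genes, CycE and trbl had both, stg, the Cdc25 phosphatase that times mitosis, had GAF only, 5 had H4K8ac only, and CycA and CycB3 had neither. In the Notch list, E(spl)m7-HLH had both, N, Dl and Ser had GAF only, and the remaining 10 had H4K8ac only. Among the cellularization genes, btsz had both, 4 had H4K8ac only, and nullo and bnk had neither. Of 15 actin and tubulin genes, Act5C and alphaTub84B had both, 3 had H4K8ac only and 10 had neither, so that H4K8ac was at 33.3% of them, near the 37.2% over all genes.

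The replication-dependent histone genes, which lie in tandem repeats, all had H4K8ac at the promoter, and 33 of 111 also had GAF. Of their promoters, 89 lay in the longest acetylated peak, chr2L:21450351-21543201, of 92850 bp, which held 12 GAF peaks, more than any other. The repeats are near-identical in sequence, so the number of GAF peaks along them is uncertain.

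**Figure D4:**
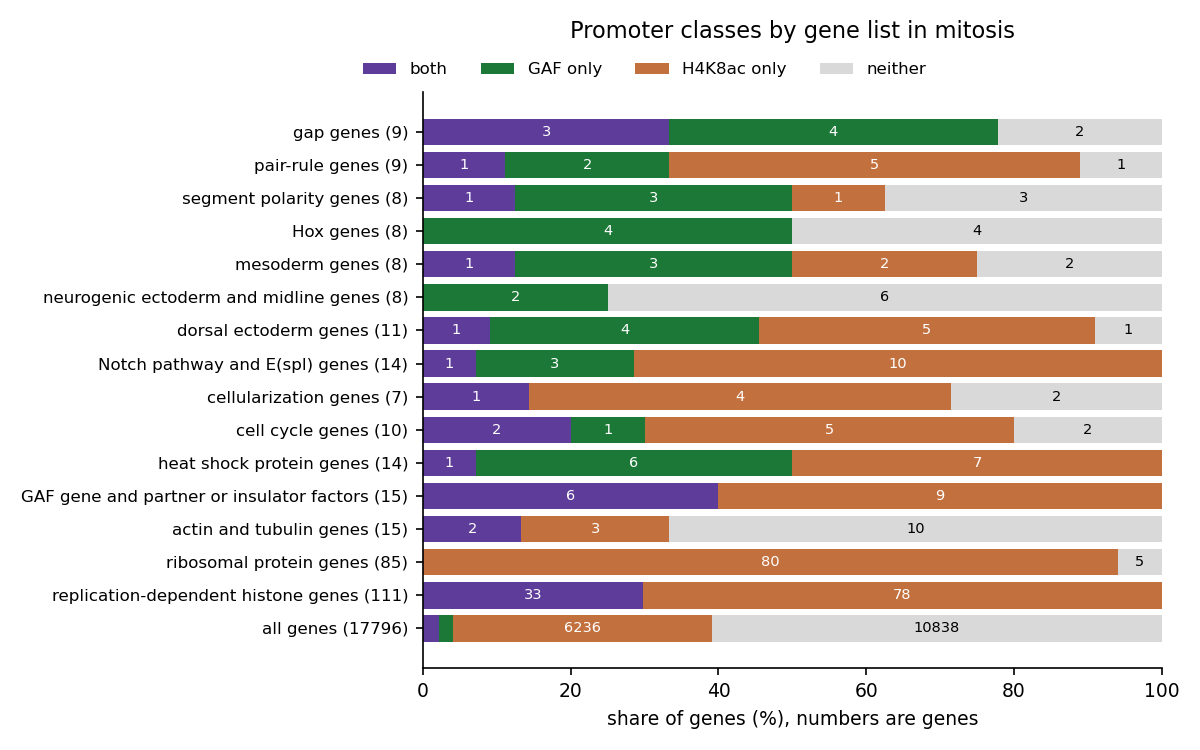
Share of genes (horizontal axis, percent) whose promoter had both mitotic marks, GAF only, H4K8ac only or neither, for 15 lists and for all 17796 genes, with the number of genes written in the bars. GAF was at 7 of 9 gap gene promoters, and 80 of 85 ribosomal protein genes had H4K8ac only.

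At 3 of the 4 genes sna, esg, scyl and chrb, the promoter GAF peak lay wholly inside a long acetylated peak. At sna, which encodes the Snail repressor of the mesoderm (FBgn0003448, chr2L:15476593-15478260, minus strand), the GAF peak chr2L:15478201-15478701 held 7 GAGAG motifs and had its centre at -191 bp, upstream of the TSS. This centre lay 7400 bp from the nearer edge of an H4K8ac peak of 15950 bp, chr2L:15471051-15487001. At esg, a related zinc finger gene (FBgn0287768, chr2L:15333866-15336138), the promoter GAF peak was chr2L:15333351-15334001. Its centre lay 1725 bp from the edge of an H4K8ac peak of 11000 bp, with a second GAF peak of 350 bp inside. At scyl (FBgn0041094, chr3L:11252307-11256172), the promoter GAF peak was chr3L:11251951-11252451. Its centre lay 2150 bp from the edge of an H4K8ac peak of 21650 bp that held 4 GAF peaks.

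The promoter of chrb, a paralogue of scyl (FBgn0036165, chr3L:11487550-11499055), differed. Its GAF peak chr3L:11487201-11487801, of 600 bp with 5 motifs, overlapped no H4K8ac peak and was 700 bp from the nearest. The H4K8ac peaks on its sides, of 150 and 1450 bp, were short.

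Among the patterning genes, hb (FBgn0001180, a gap gene, chr3R:8690980-8697822) and eve (FBgn0000606, a pair-rule gene, chr2R:9979319-9980795) both had GAF inside an H4K8ac peak. The centre of the GAF peak at hb lay 6825 bp from the edge of an H4K8ac peak of 13950 bp. The centre at eve lay 10350 bp from the edge of one of 21900 bp. At both, acetylation spanned the gene and its flanks and 1 GAF peak, upstream of the TSS, was the only one in it.

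At Ubx and rho the marks lay mostly apart, and at zen and twi no GAF peak was called. Ubx (FBgn0003944, chr3R:16656623-16734426) had 5 GAF peaks in or within 2000 bp of the gene, of which 1, chr3R:16702701-16703301, lay inside an H4K8ac peak of 6200 bp. Its promoter GAF peak was 1400 bp from the nearest H4K8ac peak. At rho, which encodes a protease of EGF signalling (FBgn0004635, chr3L:1463811-1468944), the GAF peak of 150 bp was 450 bp from an H4K8ac peak of 8150 bp that ended upstream of the TSS. The zen gene (FBgn0004053, chr3R:6752864-6754194) lay in an H4K8ac peak of 18600 bp with no GAF peak. The twi gene (FBgn0003900, chr2R:22985374-23048325, as annotated with its most upstream start) had 4 H4K8ac peaks and no GAF peak in it or within 2000 bp.

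**Figure D5:**
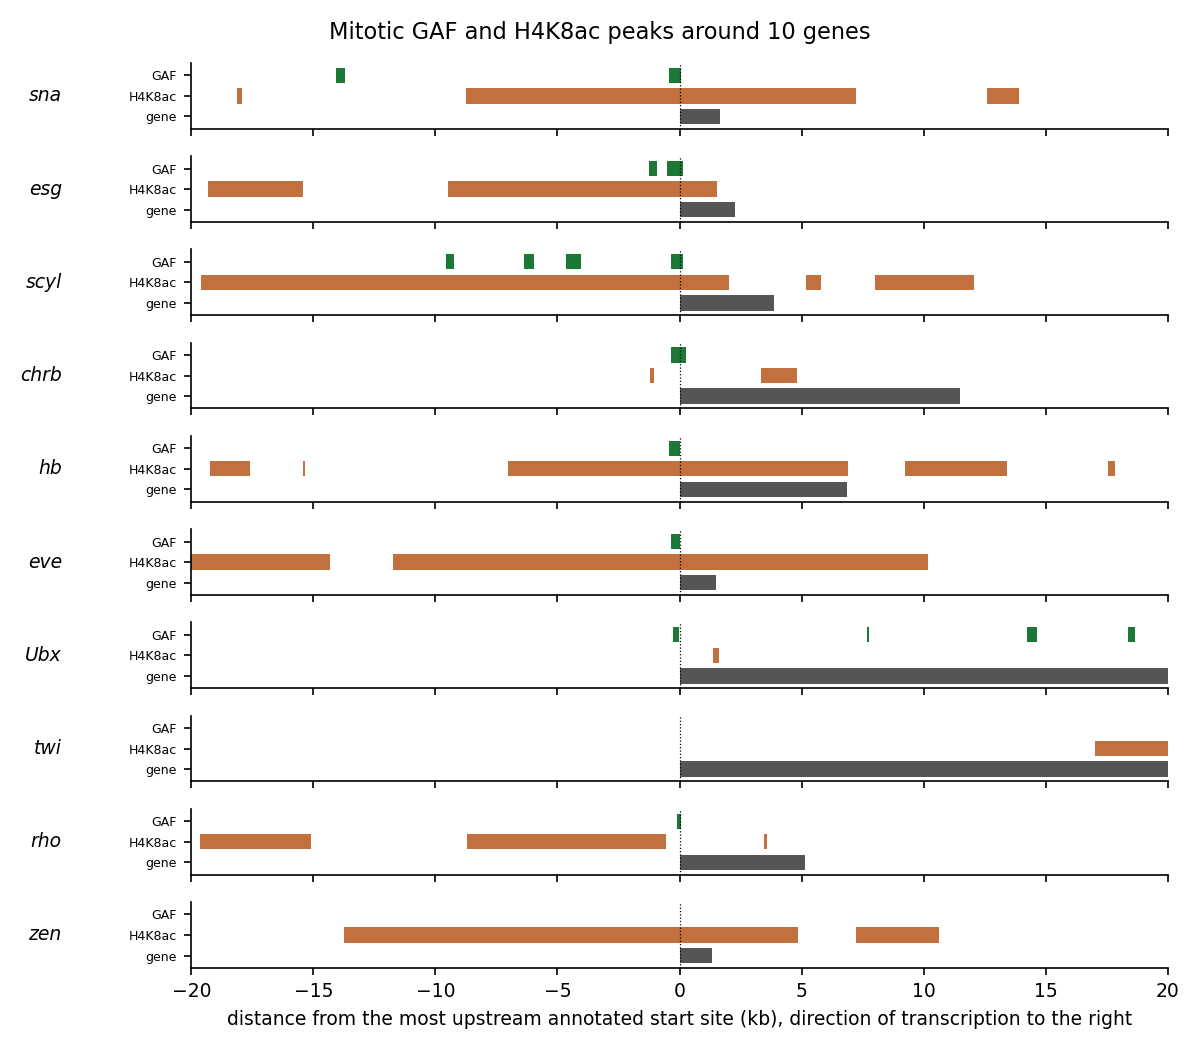
Positions of mitotic GAF peaks (green), mitotic H4K8ac peaks (orange) and the gene (grey) around 10 genes, by distance in kb from the most upstream annotated TSS, cut at 20 kb on either side. The GAF peak beside the TSS lies on an H4K8ac peak at sna, esg, scyl, hb and eve and off it at chrb, Ubx and rho.

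The extremes of each class were taken by rule. After the histone cluster, the acetylated peaks with the most GAF peaks were chrX:6982051-7001901 and chrX:2292151-2308701, with 6 GAF peaks each. The first is 19850 bp long and covers promoters of ogre, Inx2 and Inx7, which encode gap junction proteins, and of bou. The second is 16550 bp long and covers those of Raf, a kinase of the MAP kinase pathway, and CG2865. The 3 longest acetylated peaks without GAF were on 2L, at chr2L:1396901-1446551, 49650 bp long and nearest to robo2, an axon guidance receptor gene, at chr2L:14423551-14460351, 36800 bp long, and at chr2L:21836551-21872251, 35700 bp long. The last 2 were nearest to the long noncoding RNA genes lncRNA:CR45726 and lncRNA:CR44917. These 3 peaks held 70, 52 and 58 GAGAG motifs, so motifs were present in long acetylated peaks where no GAF peak was called. The counts run over the whole length of each peak, and motifs per kb were not computed for these 3. Over all 4962 H4K8ac peaks without GAF the mean was 1.19 motifs per kb.

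Of GAF peaks without H4K8ac and not rich in repeats, 3 held 15 motifs each. One at disco, a zinc finger gene (chrX:16216651-16217751), was 53250 bp from the nearest H4K8ac peak. One at mgl (chrX:9495551-9496551) was 450 bp away and one at ttk, which encodes the Tramtrack repressor (chr3R:31713151-31714001), was 1000 bp away. Each lay within 500 bp of a TSS of its gene. The GAF peaks crossing an edge with the most motifs were in or near RhoGAPp190 (chrX:17651251-17652501, 15 motifs), crol (chr2L:11806701-11807451, 15 motifs) and RhoGAP18B (chrX:19153401-19154351, 13 motifs).

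The 3 longest GAF peaks wholly inside an H4K8ac peak were of another kind. They were 3100, 2300 and 1350 bp long, lay on X at chrX:23278001-23281101, chrX:23282001-23284301 and chrX:23210701-23212051, and were nearest to ribosomal RNA pseudogenes. They held 2, 3 and 2 GAGAG motifs. Each shares a border with its H4K8ac peak, and ribosomal RNA sequence is present in many copies in the genome, so the reads behind these peaks cannot be placed with certainty.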

How the data were processed

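Chromatin from mitotic embryos was immunoprecipitated for GAF or H4K8ac. The authors trimmed reads with cutadapt 1.16, mapped them to dm6 with Bowtie2, scaled coverage in 50 bp bins to RPM, subtracted input, averaged replicates and called peaks above a threshold of 100 (GAF) or 22 (H4K8ac). The deposited lists give peak positions in bp. Their names carry a gap of 200 bp for GAF and 2000 bp for H4K8ac, while the methods give 200 bp for both, and the smallest gap found was 200 bp and 2000 bp. A high threshold on the mean makes peak number and length depend on signal strength. The 2 deposited lists of peaks overlapping between stages were not used, and no per-sample columns were left out.

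Overlaps were computed in Python (3.11.15, with NumPy version 2.4.6, SciPy version 1.17.1) and counts were repeated with bedtools 2.31.1. Genes came from Ensembl release 115 and sequence and repeat marks from RefSeq, both of build dm6. Shares carry Wilson intervals and differences Newcombe intervals, differences within length bins Mantel-Haenszel intervals, and rates exact Poisson intervals. These steps were tested on simulated data. Members, gene lists and rules were chosen with earlier results of these data known. The rule for names was sna, esg, scyl and chrb, the patterning genes by class, and the 3 extremes of each class by GAF number, length or motifs. Of the listed symbols, 3 were matched by a newer name. Alternatives changed the overlap, lengths, chromosomes, repeats, promoter window and genes.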

Additional observations from a re-analysis of the deposited data

Results flagged for a closer look

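The mitotic GAF list held 10 peaks on the mitochondrial genome, which the comparison of nuclear chromosomes did not use. They are a signal outside the main measurement, and the lists give no control value for them. The mitotic H4K8ac list held 1 peak there.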

How the results depend on the processing

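Of 42 alternative values, 28 stayed within the interval or range set for them, and no single difference or ratio changed sign. Requiring 50% of the GAF peak to be covered gave 32.1% of GAF peaks with H4K8ac and 93.5% wholly inside. With GAF peaks of at least 300 bp, 40.2% of GAF peaks and 5.53% of H4K8ac peaks overlapped, 82.2% lay inside and the density ratio was 5.45. With H4K8ac peaks of at least 1000 bp, these shares were 31.8%, 13.3% and 91.1%. Without peaks of at least 50% repeat, 37.3% of GAF peaks overlapped and the ratio was 5.15. Promoters with both marks numbered 631 with a window of 1000 bp upstream to 100 bp downstream and 217 with the most upstream TSS alone. In the last case they were fewer than the 270 with GAF only, which turns round the order of these classes (390 and 332 with any TSS). Within bins of length, the share with 4 or more motifs was lower in GAF peaks with H4K8ac, by a difference of -5.78 points (-10.3 to -1.31), and without bins the difference was -0.131 points (-4.90 to 4.60). No paired analysis was possible because each deposited list pools its replicates, and leaving out a replicate was not run for the same reason. The causes of these shifts were not tested beyond the choice named. Depth per peak is unknown, so a missing peak does not show that a mark was absent.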
